A study of Drosophila melanogaster with 4 samples.

Results

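The genes described here are 8 nuclear genes of the respiratory chain of Drosophila melanogaster, taken by name from a table of RNA-seq counts for 9931 genes. They are ND75, mtacp1, l(3)neo18 and l(2)35Di of complex I, SdhB of complex II, RFeSP and ox of complex III, and Cyt-c-p, which encodes cytochrome c. All 8 names occurred in the table, each on a single row, and all 8 passed the filter on low counts. The libraries were made from total RNA of salivary glands of third-instar larvae kept at 25 °C. There were 2 libraries from wild-type larvae, whose strain the labels do not name, and 2 from larvae homozygous for the JIL-1 null allele Z2. JIL-1 is a kinase of histone H3 that binds the open interbands of polytene chromosomes. The allele was carried by the whole larva and not by the gland alone, and effects of the allele and of the strain background cannot be told apart. Nothing in the labels states that libraries of a genotype were prepared from different larvae or cultures, so the spread behind each p-value may be technical.

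The respiratory chain sits in the inner mitochondrial membrane and passes electrons from metabolites to oxygen. Complex I takes them from NADH and complex II from succinate, both hand them to ubiquinone, complex III moves them on to the small soluble carrier cytochrome c, and complex IV gives them to oxygen. Complexes I, III and IV pump protons as they do so, and the resulting gradient drives ATP synthesis. Complex II is also an enzyme of the TCA cycle and is built only from nuclear-encoded subunits, whereas the other complexes also hold subunits made from mitochondrial DNA. The larval salivary gland is a secretory tissue that makes large amounts of glue protein late in larval life.

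Library totals ran from 6222322 to 11369094 counts, and secretion genes of the Sgs and Eig71E families took between 35.3% and 37.7% of them. The 9 gland markers, which include Sgs3, sage and fkh, summed to 287400 and 341200 CPM in wild type, against 317000 and 297300 CPM in JIL-1 null. Of these, 2 were called lower by edgeR, Sgs1 and sage. Sgs1 fell from 24720 and 22190 CPM in wild type to 9756 and 10000 CPM in JIL-1 null (edgeR adjusted p = 0.00195). The number of gland markers called higher was 0 with edgeR, 1 with DESeq2 and 1 with limma-voom, and 1 had an unadjusted edgeR p under 0.05. These levels leave the gland label in place. CPM is the usual depth-scaled count, here with TMM factors. JIL-1 itself had 597 and 608 counts in wild type, against 449 and 660 in JIL-1 null, and it fell by 0.61 on the log2 scale (edgeR adjusted p = 0.0147). Counts per gene do not show which part of JIL-1 these reads came from.

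Of the 8 respiratory chain genes, 4 rose in JIL-1 null. They were RFeSP, mtacp1, l(2)35Di and ox, with increases between 1.40-fold and 1.71-fold. The other 4, which are Cyt-c-p, l(3)neo18, ND75 and SdhB, did not pass the test, with values between 1.04-fold and 1.23-fold. The call required an adjusted p under 0.05 over all 7958 genes tested (edgeR's quasi-likelihood test), and 13.5% of those genes were called higher and 30.7% in either direction, with 1369 genes called lower. None of the 8 was called lower by edgeR, DESeq2 or limma-voom, and the number lower at an unadjusted p under 0.05 was 0 with each. These are bulk samples, in which a change in the number of cells of a type and a change in RNA per cell cannot be told apart.

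**Figure D1:**
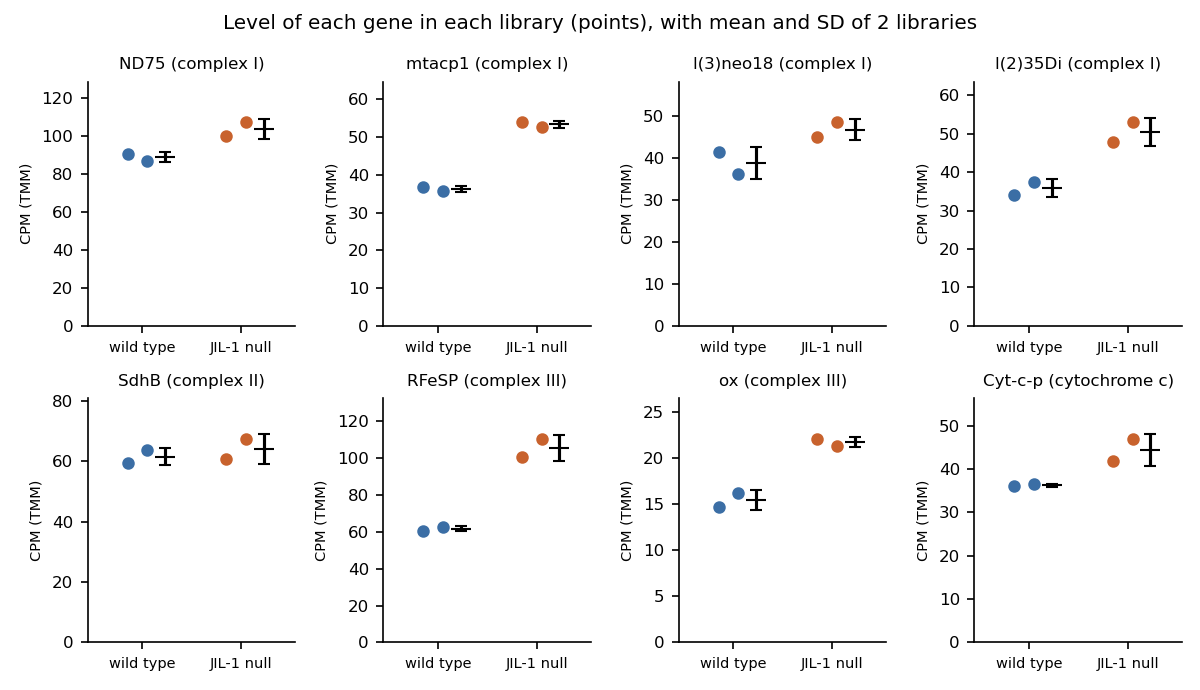
Level of each of the 8 genes in CPM (vertical axis from 0) in the 2 wild-type and the 2 JIL-1 null libraries (points), with the mean and SD of each genotype beside them. The genotypes are apart for every gene except SdhB, and the gap is widest for RFeSP.

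Complex I takes electrons in through a core arm of iron-sulphur proteins in the matrix. ND75, the counterpart of human NDUFS1 and the largest of these core proteins, was counted 578 and 687 times in wild type, against 809 and 1268 times in the mutant, or means of 88.7 ± 2.49 and 103.6 ± 5.04 CPM (SD, n = 2). By CPM both mutant libraries were above both wild-type libraries. The difference did not pass the test, with a log2 fold change of 0.22 ± 0.10 (SE, 95% interval -0.02 to 0.47, edgeR adjusted p = 0.136). Throughout, log2 fold changes compare JIL-1 null with wild type as reference, and their errors are standard errors.

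The remaining complex I genes encode accessory subunits, which surround the core and are needed to build or hold the complex. The gene mtacp1 encodes the mitochondrial acyl carrier protein, which also serves mitochondrial fatty acid synthesis. Its level was 36.8 and 35.7 CPM in wild type, against 53.9 and 52.7 CPM in JIL-1 null. The libraries of each genotype lay close together and far from those of the other. It rose 1.47-fold (log2 fold change 0.56 ± 0.09, edgeR adjusted p = 0.00764). For l(2)35Di, the counterpart of human NDUFB6 in the membrane arm, the values were 34.1 and 37.5 CPM in wild type, against 47.8 and 53.0 CPM in JIL-1 null. The genotypes did not overlap, and the gene rose 1.41-fold (log2 fold change 0.49 ± 0.11, edgeR adjusted p = 0.0189). The membrane arm subunit gene l(3)neo18, the counterpart of NDUFB5, gave 41.3 and 36.1 CPM in wild type, against 44.9 and 48.4 CPM in JIL-1 null. Its genotypes were apart as well, but by less than the distance between the wild-type libraries. The log2 fold change of 0.27 ± 0.11 (95% interval 0.0049 to 0.54) did not pass the test (edgeR adjusted p = 0.11).

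SdhB encodes the iron-sulphur subunit of succinate dehydrogenase, which is complex II. It had the smallest difference of the 8 genes. Its level was 59.5 and 63.5 CPM in wild type, against 60.6 and 67.4 CPM in JIL-1 null, so that the genotypes overlapped. The log2 fold change was 0.06 ± 0.11 (edgeR adjusted p = 0.71). The 95% interval ran from -0.20 to 0.32 on the log2 scale, so a rise of the size seen for mtacp1 lay outside it.

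Complex III held the gene with the largest change. RFeSP encodes the Rieske iron-sulphur protein, which takes electrons from ubiquinol and hands them towards cytochrome c1. It had 387 and 494 counts in wild type, against 812 and 1308 in JIL-1 null, or 60.6 and 62.5 CPM against 100.4 and 110.5 CPM. Each JIL-1 null library was far above both wild-type libraries. RFeSP rose 1.71-fold (log2 fold change 0.78 ± 0.10, 95% interval 0.53 to 1.03, edgeR adjusted p = 0.00359). The other complex III gene, ox, encodes a small subunit related to human UQCR10 and had the lowest counts of the 8 genes, between 94 and 253. Its level was 14.71 and 16.2 CPM in wild type, against 22.1 and 21.4 CPM in JIL-1 null. The genotypes did not overlap, and ox rose 1.40-fold (log2 fold change 0.49 ± 0.14). Its adjusted p of 0.048 lay at the edge of the threshold, and ox was called in 6 of 12 alternatives (edgeR, DESeq2 or limma adjusted p 0.0193 to 0.234). It was not called by DESeq2, or when wild type library 1 or either JIL-1 null library was left out. Nor was ox called by edgeR with another scaling (RLE factors, adjusted p = 0.0564) or with the library number as a replicate block (adjusted p = 0.0761).

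Cyt-c-p, the gene for the cytochrome c of somatic cells, had 36.0 and 36.5 CPM in wild type, against 41.8 and 47.0 CPM in JIL-1 null. The wild-type libraries were almost equal, and both mutant libraries were higher. The log2 fold change of 0.30 ± 0.10 (95% interval 0.04 to 0.55) did not pass over all genes (edgeR adjusted p = 0.0788). Its paralog Cyt-c-d, known for a role in the male germ line, was near the limit of measurement, at 18 and 29 counts in wild type, against 44 and 45 in JIL-1 null. Cyt-c-d held at most 45 counts beside 230 to 556 for Cyt-c-p. How reads that the paralogs share were counted was not tested.

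Considered together, 8 of the 8 log2 fold changes were above 0, where 4182 of the 7958 genes tested were. Their median was 0.39, beside 0.03 over all genes tested. In 7 of the 8 genes both JIL-1 null libraries were above both wild-type libraries, a pattern found in 37.2% of all genes tested, while in 70.3% the genotypes were apart in either direction. Upper quartile scaling moved the median of all genes from 0.03 to 0.17 and turned the split of all calls from 44.0% higher to 59.4% higher. With that scaling 7 of the 8 genes and 21.2% of all genes tested were called higher. Relative to the median of all genes, the median of the 8 genes was 0.36 with TMM factors and 0.36 with upper quartile scaling, and between 0.28 and 0.40 over the 12 alternatives. Fewer of the 8 genes, and of all genes tested, were called when either JIL-1 null library was left out, which also left fewer samples. The median log2 fold change of the 8 genes was then 0.43 without JIL-1 null library 1 and 0.29 without library 2, beside 0.39. Standard errors rose for each of the 8 genes, for mtacp1 from 0.09 to 0.16 in both fits, and the cause was not tested. Without JIL-1 null library 1, RFeSP alone was called, and 3.43% of all genes tested were called higher. Without JIL-1 null library 2, edgeR called 0 of the 8, against 2 higher at an unadjusted p under 0.05, and called 2.36% of all genes higher. DESeq2 on all 4 libraries called RFeSP and mtacp1, where it called 5.75% of all genes higher.

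**Figure D2:**
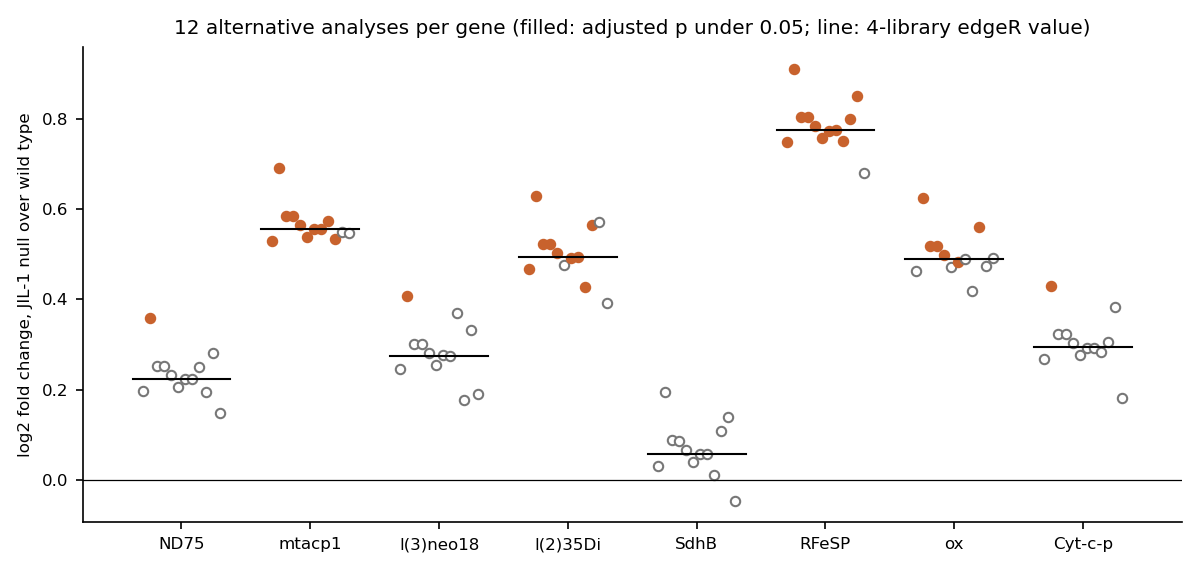
Log2 fold change (JIL-1 null over wild type, vertical axis) of each of the 8 genes under 12 alternative analyses (points, filled where the adjusted p was under 0.05) and in the edgeR fit of 4 libraries (line). RFeSP was called in 11 of the 12 alternatives and mtacp1 in 10, whereas SdhB was called in none and reached -0.05 when JIL-1 null library 2 was left out.

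Because a scaling factor acts on all genes of a library alike, ratios of counts between genes of the same library do not depend on it. Set against SdhB, RFeSP had ratios of 1.02 and 0.984 in wild type, against 1.66 and 1.64 in JIL-1 null. These counts were thus nearly equal in wild type and unequal in the mutant. The ratio of l(2)35Di to SdhB was 0.574 and 0.59 in wild type, against 0.79 and 0.786 in JIL-1 null. For mtacp1 it was 0.618 and 0.562 against 0.89 and 0.782. In all 7 genes the ratio to SdhB was higher in both JIL-1 null libraries than in both wild-type libraries, by 1.12 for ND75 up to 1.65 for RFeSP. The same held in 31.1% of all other genes tested. SdhB had the smallest difference of the 8 genes, so its choice as divisor fixed the direction of the mean ratios. The ratios share this divisor, and 2 libraries against 2 cannot give an exact permutation p below 0.333, so they are given as values. A ratio shows unequal change and does not show that SdhB stayed constant. Against SdhA, the flavoprotein subunit of the same complex, SdhB had ratios of 0.547 and 0.632 in wild type, against 0.425 and 0.476 in JIL-1 null.

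**Figure D3:**
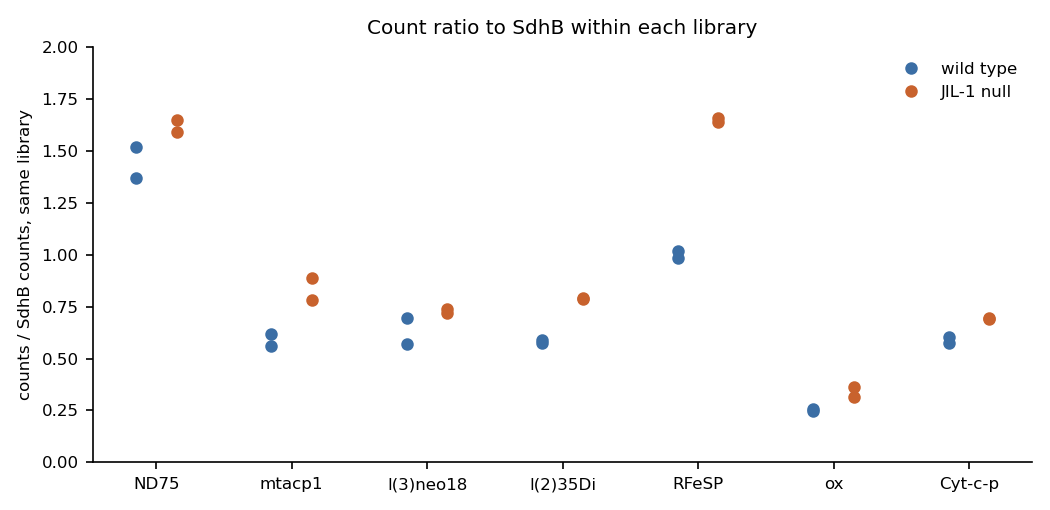
Counts of each gene divided by the counts of SdhB in the same library (vertical axis, from 0), in the 2 wild-type libraries (blue) and the 2 JIL-1 null libraries (orange). In each gene the JIL-1 null points lie above the wild-type points, and the RFeSP ratio moves from a mean of 1.00 to 1.65.

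Levels can be compared between genes only per length. The authors' deposited table gives a pooled RPKM for each genotype, in which SdhB (48.4), ox (47.0) and Cyt-c-p (46.7) led in wild type and ND75, l(2)35Di and mtacp1 stood at 16.8 each. The length behind these values, found by dividing counts by RPKM and library totals, was 5112 bases for ND75, whose exons cover 2634 bases in a later annotation (BDGP6). It was close to the 5114 bases that its 2 annotated transcripts hold when added together. For 5 of the 8 genes the implied length was more than 1.5 times the exon length, at 2.49 times for mtacp1 and 2.40 times for RFeSP. For SdhB and ox, which have 1 annotated transcript each, it was 1.02 and 0.969 times, and Cyt-c-p, with 2 annotated transcripts, stood at 1.11 times. Over the whole table the median was 1.00 for 1140 genes with 1 transcript and 1.99 for 2949 genes with several, among genes with more than 200 counts in each genotype. Of the genes with several transcripts, 53.2% had an implied length within 10% of their transcripts added together. Cyt-c-p (753.5 bases, against 1315 added) and l(2)35Di (2082 against 1702) did not. Order by the deposited RPKM thus depended on a length that often exceeded the exon length, and how the authors set it was not tested.

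With CPM divided by exon length, the 8 genes lay close together. In wild type the order was RFeSP (55.1 ± 1.23 CPM per kb, SD, n = 2), Cyt-c-p (53.2 ± 0.47), SdhB (50.5 ± 2.36), ox (46.7 ± 3.18), l(3)neo18 (43.6 ± 4.18), mtacp1 (43.0 ± 0.915), l(2)35Di (36.1 ± 2.38) and ND75 (33.7 ± 0.944). Neighbours whose libraries overlapped were SdhB with ox, ox with l(3)neo18 and l(3)neo18 with mtacp1. The lowest library of l(2)35Di (34.4) and the highest of ND75 (34.35) were almost level. RFeSP thus moved from the fifth place by deposited RPKM to the first. In JIL-1 null RFeSP reached 94.3 ± 6.41 CPM per kb and stood clear of the rest. It was followed by ox (65.7 ± 1.61), Cyt-c-p (65.2 ± 5.39) and mtacp1 (63.3 ± 0.989), of which Cyt-c-p overlapped both others. SdhB (52.5 ± 3.97), l(3)neo18 (52.5 ± 2.82) and l(2)35Di (50.8 ± 3.66) were not separable, and ND75 was again lowest at 39.3 ± 1.91. The exon lengths come from an annotation of another build, so these levels are approximate.

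**Figure D4:**
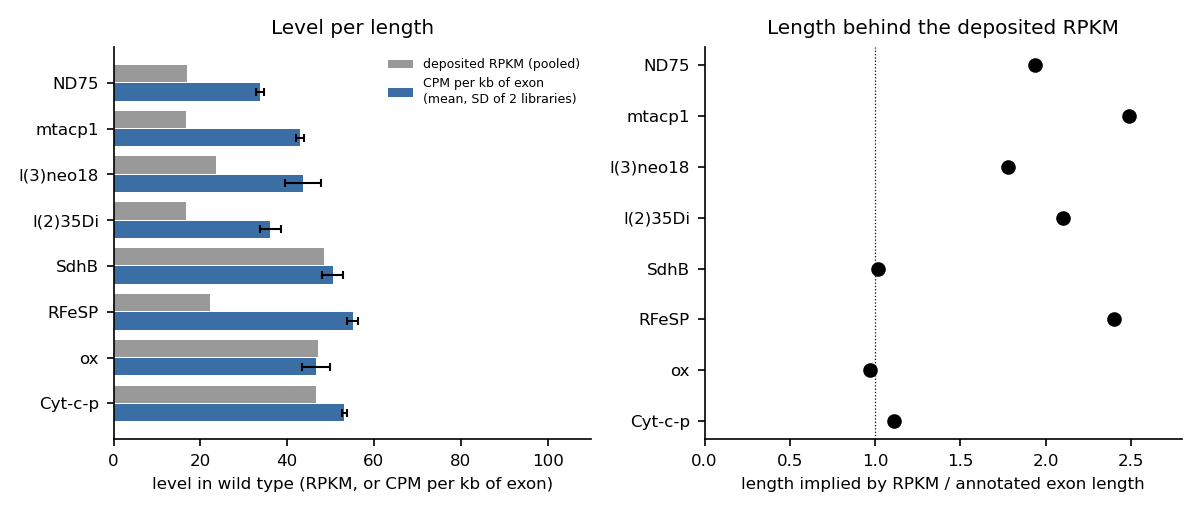
Left, wild-type level of each gene as the authors' deposited pooled RPKM (grey) and as CPM per kb of annotated exon (blue, mean and SD of 2 libraries). Right, length implied by the deposited RPKM divided by annotated exon length, near 1 for SdhB, ox and Cyt-c-p and between 1.78 and 2.49 for the other 5 genes, whose grey bars are the short ones.

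Among the other subunit genes of complexes I to III, 40 were listed and 39 tested, of which 14 rose and 1 fell. The log2 fold change was above 0 in 36 of the 39. The share called higher was 35.9%, beside 13.5% of all genes tested, and the median log2 fold change was 0.34. The remaining subunit gene, CG15434, a complex I accessory gene, had at most 3 counts in any library.

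Among 7 core subunit genes of complex I, CG12079 and CG5703 rose. This share of 28.6% stood beside 13.5% of all genes tested called higher and 30.7% in either direction. CG12079, the counterpart of NDUFS3, went from 42.9 and 45.2 CPM in wild type to 56.0 and 59.1 CPM in JIL-1 null (log2 fold change 0.39 ± 0.10, edgeR adjusted p = 0.0296). CG5703, the counterpart of NDUFV2, had a log2 fold change of 0.46 ± 0.13. DESeq2 called 0 of the 7 core genes, with 1 higher at an unadjusted p under 0.05, and limma-voom called 2 higher. Among 26 tested accessory subunit genes, 11 rose and 1 fell, and 24 were above 0. The share called was 46.2%, and 42.3% were called higher. CG6463, the counterpart of NDUFA5, had the largest increase of complex I, from 21.1 and 21.5 CPM to 34.9 and 40.6 CPM (log2 fold change 0.82 ± 0.12, edgeR adjusted p = 0.00565). CG12859 and CG3192, counterparts of NDUFB4 and NDUFB8, rose by 0.59 ± 0.13 and 0.53 ± 0.12 on the log2 scale. Without wild type library 1 the accessory genes called higher numbered 7, and without JIL-1 null library 1 or 2 they numbered 1 and 0. CG12079, CG5703, CG12859 and CG3192 each lost their call when either JIL-1 null library was left out, and CG6463 only without the second. Leaving out wild type library 1 ended the calls of CG12079 and CG3192, and wild type library 2 that of CG5703. DESeq2 called CG6463 and none of these other 4 genes (adjusted p between 0.0702 and 0.193).

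Among the accessory genes 2 had values below 0, and 1 of them passed the test. The other, CG11455, the counterpart of NDUFS5, had a log2 fold change of -0.24 ± 0.12 (edgeR adjusted p = 0.178). CG40002, the counterpart of NDUFB2, fell from 11.7 and 14.9 CPM in wild type to 5.07 and 6.17 CPM in JIL-1 null. Its genotypes were far apart, although its counts were few, at 75 and 118 in wild type against 41 and 73 in the mutant. The log2 fold change was -1.24 ± 0.20 (edgeR adjusted p = 0.00754, or 0.056 when JIL-1 null library 1 was left out). Relative to mtacp1 in the same library, its counts were 0.319 and 0.418 in wild type, against 0.094 and 0.117 in JIL-1 null.

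In complex II, SdhA rose, from 108.8 and 100.5 CPM to 142.5 and 141.8 CPM (log2 fold change 0.44 ± 0.10, edgeR adjusted p = 0.0216). It was the only 1 of 4 genes called, or 25.0%. Of all genes tested, 13.5% were called higher and 30.7% in either direction. The membrane anchor genes SdhC and CG10219, the latter the SdhD gene, gave 0.27 ± 0.09 and 0.09 ± 0.10 and did not pass. Of 9 complex III genes 4 rose, or 44.4%. Besides RFeSP and ox these were CG14482, a small subunit, and CG4769, the cytochrome c1 gene. CG4769 went from 57.1 and 55.8 CPM to 70.6 and 84.7 CPM (log2 fold change 0.46 ± 0.12). CG3731 and CG4169, which encode the large core proteins of the complex, had log2 fold changes of 0.18 ± 0.10 and 0.24 ± 0.12 and did not pass. RFeSP counts relative to CG3731 counts were 0.537 and 0.581 in wild type, against 0.84 and 0.849 in JIL-1 null. The calls of SdhA, CG14482 and CG4769 were lost when either JIL-1 null library was left out, and that of CG4769 also without wild type library 2. DESeq2 called SdhA but not CG14482 or CG4769 (adjusted p = 0.0843 and 0.0811). Ucrh, the counterpart of UQCRH, was the exception in sign at -0.38 ± 0.13 (edgeR adjusted p = 0.081).

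**Figure D5:**
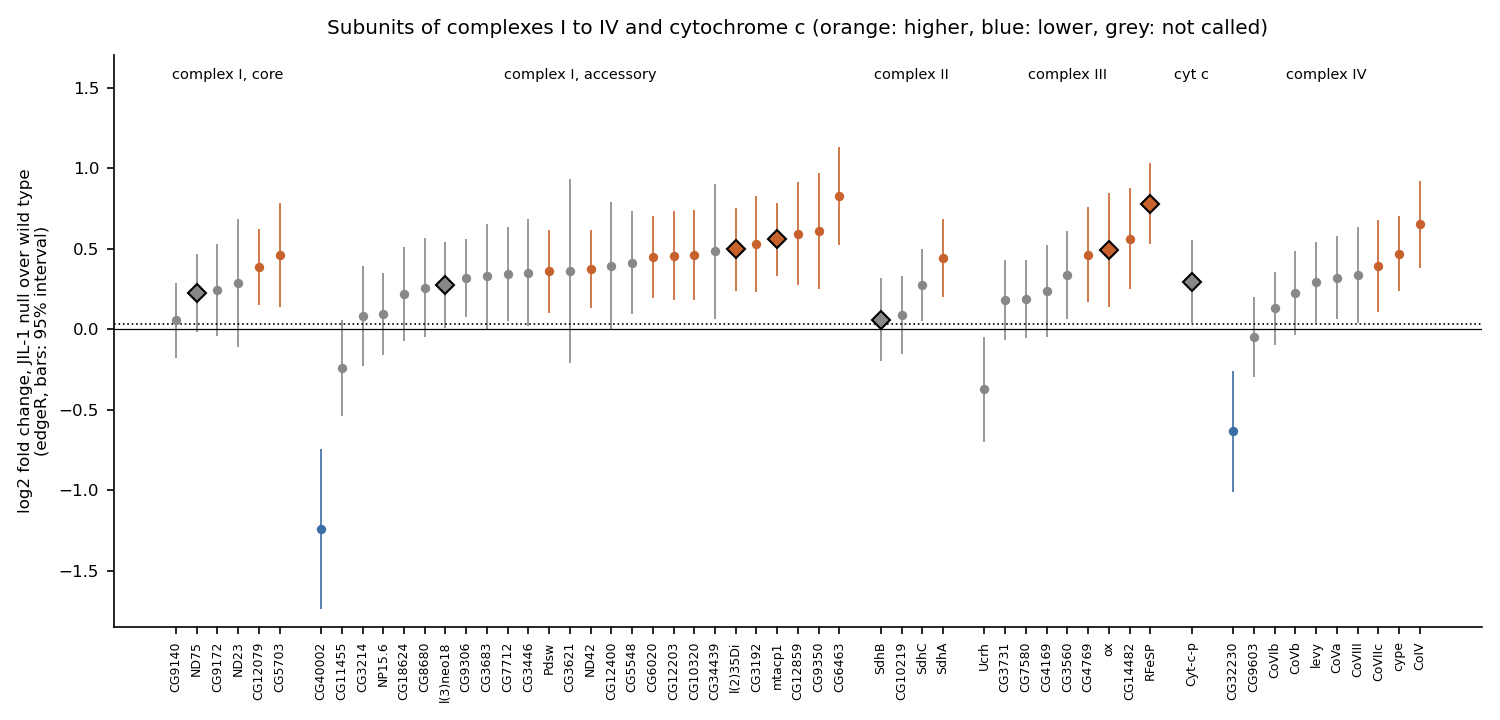
Log2 fold change (JIL-1 null over wild type, edgeR, bars show the 95% interval) of tested subunit genes of complexes I to IV and cytochrome c, with 1 core gene of complex I not shown. Diamonds mark the 8 genes described in full, orange genes were called higher, blue lower and grey in neither direction, and the dotted line is the median of all genes tested at 0.03. Most points lie above that line, with CG40002 and CG32230 called lower.

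Complex IV, to which cytochrome c passes its electrons, gave 3 higher and 1 lower of 10 genes. The share called was 40.0%, beside 30.7% of all genes tested, and 30.0% were called higher, beside 13.5%. CoIV rose from 75.6 and 79.9 CPM to 114.3 and 129.5 CPM (log2 fold change 0.65 ± 0.11, edgeR adjusted p = 0.00824), cype by 0.47 ± 0.10 and CoVIIc by 0.39 ± 0.12. CoVIIc, at adjusted p = 0.0497, was not called by DESeq2 or limma-voom (range over all alternatives 0.0162 to 0.355). The gene that fell, CG32230, is the counterpart of NDUFA4, a protein first counted to complex I and later to complex IV. It stood at 42.9 and 57.7 CPM in wild type, against 32.8 and 32.2 CPM in JIL-1 null (log2 fold change -0.64 ± 0.15). The calls of cype and CG32230 were lost without either JIL-1 null library, and that of CoIV without the second. Per length, complex IV genes had a median wild-type level of 88.3 CPM per kb. It was 31.7 for core and 38.5 for accessory complex I genes, 47.9 for complex II and 46.7 for complex III. The core gene CG12079 had no exon length in the annotation and is not in the core median.

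The TCA cycle, which supplies the NADH and succinate that enter the chain, had calls in both directions. The share of its genes called was 25.0%, beside 30.7% of all genes tested, and 8.33% were called higher, beside 13.5%. Of 12 enzyme genes tested besides the complex II genes, 1 rose and 2 fell, 7 were above 0, and the median log2 fold change was 0.19. The citrate synthase gene kdn fell from 338.0 and 341.1 CPM in wild type to 118.9 and 126.6 CPM in JIL-1 null (log2 fold change -1.47 ± 0.10, edgeR adjusted p = 0.000492), and it was called lower in 12 of 12 alternatives. Relative to SdhA in the same library, kdn counts were 3.11 and 3.39 in wild type, against 0.834 and 0.893 in JIL-1 null. Scsalpha, which encodes a subunit of succinyl-CoA synthetase, had a log2 fold change of -0.37 ± 0.11 (edgeR adjusted p = 0.043) and was called in 5 of 12 alternatives (adjusted p 0.0172 to 0.276), with upper quartile scaling among those where it was not. The fumarase gene l(1)G0255, whose enzyme acts just after complex II, rose from 42.9 and 37.1 CPM to 56.7 and 56.2 CPM (log2 fold change 0.50 ± 0.11). Its call was lost with DESeq2 (adjusted p = 0.0644), without wild type library 2 and without either JIL-1 null library. Scsalpha also lost its call when any of these 3 libraries was left out.

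Other routes by which electrons reach ubiquinone gave 0 calls among 4 genes with edgeR, DESeq2 or limma-voom. Of all genes tested, edgeR called 30.7% in either direction. At an unadjusted p under 0.05, edgeR, DESeq2 and limma-voom placed 2, 1 and 2 of the 4 genes higher. CG12140, the electron transfer flavoprotein dehydrogenase gene, had a log2 fold change of 0.41 ± 0.13 (edgeR adjusted p = 0.0615) and was called higher in 2 of 12 alternatives, with upper quartile scaling (adjusted p = 0.0255) and without wild type library 1 (adjusted p = 0.0232). Dhod, of pyrimidine synthesis, had one of 0.18 ± 0.10. Of 6 genes for regulators of mitochondrial genes, 16.7% were called by edgeR, beside 30.7% of all genes tested. Log2 fold changes were above 0 in 5 of the 6, with a median of 0.27, and 1 gene fell. This was ewg, the fly counterpart of NRF1, from 34.3 and 35.7 CPM to 24.1 and 22.1 CPM (log2 fold change -0.60 ± 0.11, edgeR adjusted p = 0.0119), a call that was lost without either JIL-1 null library. Of 16 listed paralogs of subunit genes, many of them known from the male germ line, 5 were in the table and only Cyt-c-d had enough counts to be tested.

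Summed levels of markers of other tissues differed between the genotypes. The share called by edgeR was 62.5% of the fat body, 22.2% of the muscle and 75.0% of the 4 tested haemocyte markers. Of all 7958 genes tested, 30.7% were called in either direction and 1369 lower. The 8 fat body markers summed to 58680 and 69600 CPM in wild type, against 39410 and 39640 CPM in JIL-1 null. Of these, 1 was called higher (Lsp1gamma) and 4 lower, and none was at 0. Lsp1gamma went from 7.357 and 7.595 CPM in wild type to 3895 and 4774 CPM in JIL-1 null, which entered those sums. It was the only 1 of the 8 with a log2 fold change above 0. The 9 muscle markers, from a tissue rich in mitochondria, summed to 150 and 95.8 CPM in wild type, against 64.8 and 53.3 CPM in JIL-1 null, with 2 lower and 7 in neither direction. Their wild-type libraries lay farther apart than the second of them did from the first JIL-1 null library. The 8 haemocyte markers summed to 125 and 127 CPM against 80.7 and 78.2 CPM, with 3 of the 4 tested lower, and eater and nimC1 were each at 0 in 1 JIL-1 null library. What part these other tissues had in the respiratory chain results was not tested. The testis markers dj, Mst87F and topi did not exceed 6 counts in any library.

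In the annotation 4 of the 8 genes overlap a gene on the opposite strand, and whether the counting used strand is not given in the sources used here. The partner of ox is mRpL18, which had 22 and 22 counts in wild type, against 42 and 71 in JIL-1 null (log2 fold change 0.86 ± 0.26, edgeR adjusted p = 0.0525). The partner of RFeSP is CG14352, at 31 and 37 counts in wild type, against 27 and 33 in JIL-1 null. The effect of these overlaps on the counts of the 8 genes was not tested. SdhB overlaps CG15237 (112 to 265 counts) and l(3)neo18 overlaps Atg12 (29 to 66 counts). The other 4 genes have no such partner.

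The profile of the 8 genes over the 4 libraries was compared with that of 2038 named genes outside the lists, as the root mean square distance between centred log2 CPM values. The nearest were tud (0.012 on the log2 scale), ATPsyn-gamma (0.014), RpII140 (0.021), dia (0.023) and Lsd-2 (0.023). ATPsyn-gamma encodes a subunit of ATP synthase, which uses the gradient the chain builds. Among the 8 genes themselves, Cyt-c-p lay nearest to their median profile, at 0.05, and RFeSP farthest, at 0.20. With 4 libraries such distances are descriptions, and they reflect mainly the size of the difference between genotypes.

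A false discovery rate under 0.05 with a fold above 1 stood against 7 of the 8 genes in the authors' deposited table, and against 22.6% of all 9931 genes. The exception was SdhB, with a fold of 1.13 and a false discovery rate of 0.115 in the authors' deposited table. The authors' deposited table gave folds that were 1.08 to 1.09 times the edgeR folds for these genes, and 1.08 times in the median of all genes tested. ND75, l(3)neo18 and Cyt-c-p, with deposited false discovery rates of 0.0259, 0.0333 and 0.0213 in the authors' deposited table, were the genes on which that table and the edgeR test differed.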

How the data were processed

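RNA-seq of salivary glands of wild-type and JIL-1 null larvae was measured in 2 libraries each. Per the submitters' processing notes, reads were aligned with GSNAP and the builds named are BDGP5 and dm3; the sources used here do not name the counter, the annotation, the strand setting or the authors' test. The deposited table holds whole-number counts per gene and library, per the file headers. Its RPKM (pooled by genotype), fold or ratio, p-value and false discovery rate are the authors' deposited values and serve here only as a description of their comparison.

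The main test was edgeR 4.0.16 (R 4.3.3, glmQLFit, glmQLFTest, two-sided) on counts with TMM factors. The filterByExpr function (count minimum 10, total minimum 15) left 7958 genes, over which Benjamini-Hochberg adjusted p-values were called at 0.05. Residual and prior degrees of freedom were 2 and 4.08 and the biological coefficient of variation was 14.9%. Alternatives used DESeq2 1.42.0, limma 3.58.1 (voom), other scalings and filters, a replicate block and each library left out. Libraries of a genotype differed by more than sampling noise (chi-square per degree of freedom 25.1 and 9.69). The procedure was tested on simulated data. Fold changes use a prior count of 0.125, and standard errors were derived from the F statistic. Exon lengths, chromosome arms, overlaps and newer symbols came from the BDGP6.54 annotation, which held 9523 of the gene identifiers, so no coordinates are printed. Cyt-c-p was matched there by symbol. Sequences were not used here.

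The 8 genes and all lists were chosen with earlier results of these data known. Genes named beyond the 8 are the called genes of each list with the smallest adjusted p, up to 3 per direction, those called against their list, or the most abundant where none was called. Other genes named, such as CG11455, CG15434, Ucrh, SdhC, CG10219, CG3731 and CG4169, were chosen after their values were seen. One core gene of complex I enters the counts but is not reported here by name.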

Additional observations from a re-analysis of the deposited data

How the results depend on the processing

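Each of the 8 genes kept its direction in 12 alternatives, except SdhB, whose log2 fold change was -0.047 without JIL-1 null library 2 (leave-one-out range -0.047 to 0.14). Counts of genes called higher moved by over 1.5 times under the following settings, and the cause was not tested. With upper quartile factors, which called 21.2% of all genes higher, 7 of the 8 genes, 4 core and 19 accessory complex I genes, 2 complex II, 7 complex III and 7 complex IV genes were called higher. With DESeq2 the numbers were 2 of the 8 genes, 0 core and 3 accessory complex I genes and 1 complex III gene. With RLE factors 1 core complex I gene was called higher. Leaving out 1 library at a time, which also left fewer samples, gave 0 to 4 of the 8 genes higher, 0 to 1 core and 0 to 14 accessory complex I genes, 0 to 1 complex II, 0 to 3 complex III and 0 to 2 complex IV genes higher, and 0 to 2 accessory complex I and 0 to 1 complex IV genes lower. Of the pairs of a named gene and an alternative, 263 kept their side of the threshold, 66 lost a call, 5 gained one and 1, that of SdhB, changed sign.

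The titles number the libraries 1 and 2 in each genotype, and nothing says that equal numbers were paired. Same-numbered libraries deviated in opposite directions (r = -0.203 across genes at 5 CPM or more, a description). With the number as a replicate block, 1 core complex I gene was called higher, 3 of the 8 genes were called (RFeSP, mtacp1 and l(2)35Di), and 961 of all genes rose and 1300 fell.

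With 2 libraries a genotype the intervals are wide: that of ND75 ran from -0.02 to 0.47, and ox, with 94 to 253 counts, had a standard error of 0.14 on the log2 scale.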

Other observations

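The false discovery rate in the authors' deposited table was lower than the p-value of the same gene for 5707 of 9931 genes, and its highest value was 0.425. SdhB was one of them, with a p-value of 0.146 and a false discovery rate of 0.115 in the authors' deposited table.

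Across complexes I to IV and cytochrome c, 48 of 57 tested subunit genes had libraries of the genotypes that did not overlap, where 70.3% of all genes tested did, and 52 of 57 were above 0. The summed level of the 58 listed genes was 2578 and 2730 CPM in wild type and 3136 and 3358 CPM in JIL-1 null.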
